A study of Rattus norvegicus with 6 samples.

Results

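Resident macrophages of the kidney were followed through 10 genes in renal cortex, the zone that holds the glomeruli and most proximal tubules, in male Sprague-Dawley rats. The genes were Cd68, Aif1, Tyrobp, Fcer1g, Csf1r, C1qa, C1qb, C1qc, Cd163 and Mrc1. They were chosen as macrophage markers with the phenolphthalein and vehicle values of these same arrays already known. Their differences between the groups are therefore given as a description, with standard errors and no test. The 10 genes, out of 15284 named on the array, had 21 probes out of 61657, each matched through its RefSeq accession and shown separately.

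The 3 rats of the treated group received phenolphthalein, a dye once sold as a laxative, at 1000 mg/kg/day for 4 weeks. The 3 rats of the vehicle group received corn oil for the same 4 weeks. All were Crl:CD(SD) males bought at an age of 5 weeks and kept on a basal diet, and each single-colour (Cy3) Agilent array held total RNA of 1 animal. The comparison asks how these genes stand in renal cortex after phenolphthalein.

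Macrophages of the kidney lie between the tubules, take up debris and immune complexes, and depend on signals through CSF1R, the receptor for the growth factors CSF1 and IL-34. CD68 is a glycoprotein of lysosomal membranes and Aif1 encodes IBA1, a calcium-binding protein of the macrophage cytoskeleton. TYROBP (DAP12) and FCER1G (the common gamma chain) are short membrane adaptors that pair with activating receptors and pass their signal to the kinase SYK. C1QA, C1QB and C1QC are the chains of C1q, the recognition protein of the classical complement pathway, made largely by tissue macrophages. CD163 is the scavenger receptor for haemoglobin bound to haptoglobin. MRC1 (CD206) is the mannose receptor, an endocytic lectin found on a subset of macrophages and on some endothelial cells. Tyrobp, Fcer1g, Cd68 and Aif1 are used by other myeloid cells too, and Tyrobp and Fcer1g also by NK cells.

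Many macrophage genes are bound near their start by PU.1, the transcription factor encoded by Spi1, at sites built around the letters GAGGAA. Promoters of 6 of the 10 genes (Cd68, Csf1r, C1qa, C1qb, Cd163 and Mrc1) were matched in RefSeq sequences of the GRCr8 build, each covering 250 bases before and 50 after the start of the gene. The windows were searched on both strands for GAGGAA, for its longer form GAGGAAGT, and for the ETS-IRF composite element, which joins a PU.1 site to a site of an interferon regulatory factor. GAGGAA was present in 4 of the 6 promoters and in 27.6% of all 33469 promoters of that length. GAGGAAGT, held by 2.42% of all promoters, was in none of the 6. The composite, held by 0.648% of all promoters, was in that of Cd68, where its bases -33 to -24 from the start overlap a GAGGAA at -27 to -22. The promoters with a match are shown because they join 3 genes with lower means after phenolphthalein and the gene with higher values, Mrc1. The 3 are Cd68, Csf1r and C1qb, and the groups overlapped for Csf1r and C1qb. Capitals mark the matches on either strand, each sequence running 5′ to 3′ along its gene.
Cd68, GRCr8 chr10:54882392-54882691, minus strand: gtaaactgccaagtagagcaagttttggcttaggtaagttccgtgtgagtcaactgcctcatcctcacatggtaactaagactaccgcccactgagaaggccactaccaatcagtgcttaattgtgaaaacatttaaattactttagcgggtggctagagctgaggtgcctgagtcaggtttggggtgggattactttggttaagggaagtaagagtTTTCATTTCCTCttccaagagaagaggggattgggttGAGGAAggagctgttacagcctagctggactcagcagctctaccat
Csf1r, GRCr8 chr18:56834129-56834428, plus strand: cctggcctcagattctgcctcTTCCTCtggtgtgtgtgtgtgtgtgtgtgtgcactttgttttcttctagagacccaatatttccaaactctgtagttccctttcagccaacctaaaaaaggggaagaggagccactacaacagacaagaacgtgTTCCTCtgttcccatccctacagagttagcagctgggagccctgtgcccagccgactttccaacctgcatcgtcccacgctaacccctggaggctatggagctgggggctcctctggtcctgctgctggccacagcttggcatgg
C1qb, GRCr8 chr5:154407778-154408077, minus strand: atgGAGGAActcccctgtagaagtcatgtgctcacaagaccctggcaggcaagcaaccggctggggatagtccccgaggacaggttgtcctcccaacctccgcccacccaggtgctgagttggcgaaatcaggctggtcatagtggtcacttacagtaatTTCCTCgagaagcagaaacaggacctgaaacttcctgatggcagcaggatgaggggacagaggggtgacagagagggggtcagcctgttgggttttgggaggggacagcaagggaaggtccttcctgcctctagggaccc
Mrc1, GRCr8 chr17:82157475-82157774, plus strand: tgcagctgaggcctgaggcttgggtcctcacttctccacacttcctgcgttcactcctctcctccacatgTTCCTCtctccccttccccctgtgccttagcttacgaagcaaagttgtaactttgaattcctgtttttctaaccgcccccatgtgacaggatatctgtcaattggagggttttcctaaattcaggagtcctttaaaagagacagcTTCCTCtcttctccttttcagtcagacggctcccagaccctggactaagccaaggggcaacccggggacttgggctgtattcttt
A match is a string of letters and no evidence of binding. Cd68, Csf1r, C1qb and Mrc1 each held GAGGAA at 2 places. The windows of C1qa and Cd163 held none of the 3 strings.

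Values are log2 intensities relative to the 75th percentile of their array, so that 0 is that percentile and a difference is on the log2 scale. The share of probes well above background ran from 64.8% to 72.1% between arrays, and 0 were saturated. The 3 vehicle arrays shared 1 slide, phenolphthalein replicates 2 and 3 shared another, and phenolphthalein replicate 1 lay on the third. Each slide was scanned on a day of its own. Slide, scan day and group can therefore not be told apart between the groups. In the fit over all 43472 tested probes, 0 were called higher and 0 lower (0% in each direction, limma, smallest adjusted p = 0.221). At an unadjusted p under 0.05, 1701 were higher and 2135 lower (3.91% and 4.91%). The median log2 difference over all tested probes was -0.01. The proximal tubule genes, all 10 tested, had a mean level of 6.03 to 6.10 in phenolphthalein arrays and 6.07 to 6.17 in vehicle arrays. These levels do not by themselves set cortex apart from other zones of the kidney.

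Of the 21 probes, 18 were well above background on all 6 arrays and were tested. They covered 9 of the 10 genes. Cd163 was the exception, and of the other macrophage markers on the array the scavenger receptor Marco and the complement receptor Vsig4 were not well above background on any array. C1q, Cd68 and Aif1 were well above background everywhere, so the macrophage label rests on these and not on Cd163. Cd68 and Aif1 are used by other myeloid cells too, and detection alone does not set resident macrophages apart from those. Among the 18 probes, 16 had lower and 2 had higher means after phenolphthalein, with a median log2 difference of -0.38. A difference below 0 was found in 53.5% of all tested probes. In 9 of the 18 probes every phenolphthalein array lay below every vehicle array, an arrangement found in 8.98% of all tested probes. Both Mrc1 probes showed the reverse order, found in 6.64% of all tested probes. No weight is placed on these shares, since the genes were chosen on this contrast. In RNA from whole cortex, fewer macrophages and less RNA per macrophage cannot be told apart.

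Of the adaptors, Fcer1g had the lowest difference of the 9 tested genes. Fcer1g by its probe of higher mean stood at 2.35, 2.67 and 2.00 in phenolphthalein replicates 1, 2 and 3, against 2.86, 3.14 and 2.97 in vehicle replicates 1, 2 and 3. All 3 treated animals were below all 3 controls, and the gap between the nearest arrays was 0.19. The log2 difference was -0.65 (SE 0.17), 0.637 times the vehicle level. The other probe stood at 1.83, 2.06 and 1.62 in phenolphthalein arrays, against 2.36, 2.55 and 2.44 in vehicle arrays, a difference of -0.61 (SE 0.12). Both probes thus put phenolphthalein replicate 3 lowest and vehicle replicate 2 highest. Tyrobp, with its single probe, stood at 3.07, 3.45 and 3.18 in phenolphthalein arrays, against 3.65, 3.81 and 3.69 in vehicle arrays. The difference was -0.49 (SE 0.10), and here phenolphthalein replicate 1 was the lowest.

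The transcripts of the macrophage proteins of the lysosome and the cytoskeleton gave a like picture. Cd68 stood at 0.74, 0.92 and 0.66 in phenolphthalein arrays, against 1.17, 1.51 and 1.34 in vehicle arrays, with means of 0.78 ± 0.13 and 1.34 ± 0.17 (SD, n = 3 each). The difference of -0.57 (SE 0.11) came with a gap of 0.25 between the nearest arrays. By its other probe, Cd68 stood at 0.47, 0.42 and 0.31 in phenolphthalein arrays, against 0.89, 1.19 and 0.95 in vehicle arrays. That probe differed by -0.61 (SE 0.10) and had the widest gap of the lower probes, 0.42. Aif1 had 3 probes, and the groups were apart in each. The probe of highest mean stood at 2.81, 3.18 and 2.96 in phenolphthalein arrays, against 3.46, 3.61 and 3.38 in vehicle arrays, a difference of -0.50 (SE 0.11). The other two differed by -0.48 (SE 0.14) and -0.39 (SE 0.08). Over the 8 probes of Cd68, Aif1, Tyrobp and Fcer1g, the differences lay between -0.65 and -0.39, or 0.637 to 0.765 times the vehicle level.

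**Figure D1:**
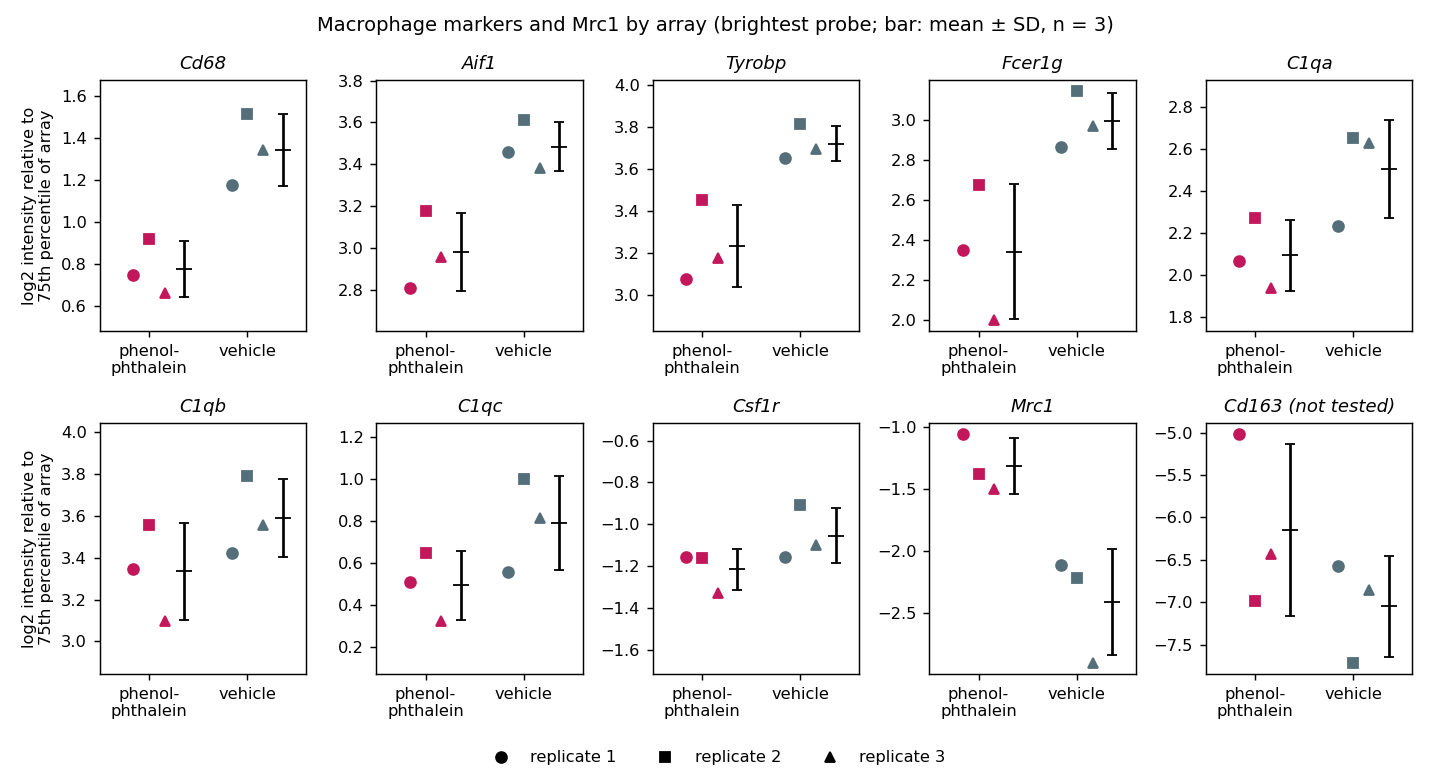
Log2 intensity relative to the 75th percentile of the array (vertical axes, each with its own range) for the 10 genes, each by its probe of highest mean, with phenolphthalein arrays left and vehicle arrays right. Points are single animals, and bars are the mean ± SD of 3. The groups are apart for Cd68, Aif1, Tyrobp, Fcer1g and Mrc1 and overlap for the C1q genes and Csf1r, while Cd163 was not tested because its probes were near background.

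The 3 chains of C1q, whose genes neighbour each other in the gene table, had smaller differences. C1qa stood at 2.07, 2.27 and 1.94 in phenolphthalein arrays, against 2.23, 2.65 and 2.63 in vehicle arrays, a difference of -0.41 (SE 0.14). Phenolphthalein replicate 2 lay above vehicle replicate 1, so the groups overlap. Its other probe, at 1.18, 1.35 and 1.07 in phenolphthalein arrays against 1.38, 1.74 and 1.59 in vehicle arrays, parted the groups by 0.03. C1qb stood at 3.35, 3.56 and 3.10 in phenolphthalein arrays, against 3.42, 3.79 and 3.56 in vehicle arrays, a difference of -0.25 (SE 0.14), and its other probe differed by -0.23 (SE 0.14). C1qc stood at 0.51, 0.65 and 0.32 in phenolphthalein arrays, against 0.56, 1.00 and 0.81 in vehicle arrays. Its difference was -0.30 (SE 0.13), and -0.29 (SE 0.13) by the other probe. Of the 6 C1q probes, 1 had groups that did not overlap. Without phenolphthalein replicate 3, C1qb was at -0.14, its other probe at -0.10 and the other C1qc probe at -0.18. Without vehicle replicate 2, C1qb was at -0.16 and C1qc at -0.19, and without phenolphthalein replicate 2 the other C1qb probe was at -0.35.

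Csf1r, the receptor on which resident macrophages depend, differed least. It stood at -1.15, -1.16 and -1.33 in phenolphthalein arrays, against -1.16, -0.91 and -1.10 in vehicle arrays, a difference of -0.16 (SE 0.10). Vehicle replicate 1 was level with phenolphthalein replicates 1 and 2, and the difference was -0.09 without vehicle replicate 2 and -0.10 without phenolphthalein replicate 3. The other probe stood at -1.55, -1.92 and -1.91 in phenolphthalein arrays, against -1.93, -1.53 and -1.79 in vehicle arrays. Its difference of -0.05 (SE 0.15) turned to 0.06 without vehicle replicate 2. It was 0.01 without phenolphthalein replicate 2 or without phenolphthalein replicate 3, -0.14 without vehicle replicate 1, -0.17 without phenolphthalein replicate 1 and -0.09 with a normexp background correction. Neither Csf1r probe separated the groups.

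Mrc1, the mannose receptor, was the only one of the 9 tested genes with higher values after phenolphthalein. It stood at -1.06, -1.38 and -1.50 in phenolphthalein arrays, against -2.11, -2.22 and -2.90 in vehicle arrays. The groups were apart by 0.61, more than any other probe of the 10 genes, although vehicle replicate 3 lay well below the other vehicle arrays. The difference was 1.10 (SE 0.23), or 2.14 times the vehicle level, and 0.85 without vehicle replicate 3. The other Mrc1 probe was dim, at -4.21, -4.96 and -5.14 in phenolphthalein arrays against -5.40, -5.20 and -5.33 in vehicle arrays. The lowest signals called well above background lay between -6.56 and -5.54 over the arrays, so this probe sat close to the limit of detection. It differed by 0.54 (SE 0.28) with a gap of 0.07, and phenolphthalein replicate 1 was far above the other treated animals. Without that array the dim probe was at 0.26, and with a normexp background correction at 0.25. The brighter probe was at 0.88 with normexp.

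Cd163 could not be followed. Its 3 probes were well above background on 0 of 3 vehicle arrays, and 1 of them on 1 of 3 phenolphthalein arrays. That probe stood at -5.02, -6.99 and -6.43 in phenolphthalein arrays, against -6.57, -7.72 and -6.86 in vehicle arrays. Only phenolphthalein replicate 1 was above the detection limit of its array, and no fold is given because the treated mean of -6.15 did not exceed the bound of -6.05 for the vehicle group. The other two probes had means of -7.78 and -7.67 in phenolphthalein arrays, against -7.51 and -7.66 in vehicle arrays, and were not well above background on any array.

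**Figure D2:**
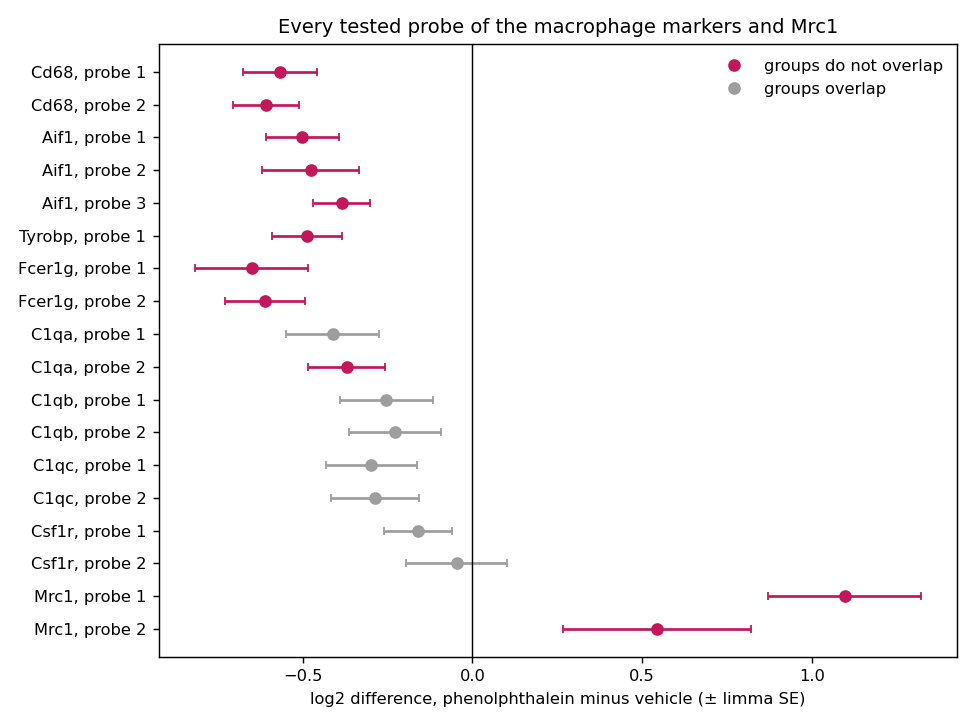
Log2 difference, phenolphthalein minus vehicle, for each of the 18 tested probes (horizontal axis, with limma standard errors), genes running down the page and probes of a gene in order of mean signal. Differences run from -0.65 for Fcer1g to 1.10 for Mrc1, and magenta points are probes whose 3 phenolphthalein and 3 vehicle arrays do not overlap.

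Probes of one gene had the same sign for all 8 genes with more than 1 tested probe. The genes also put the animals in much the same order. Within the vehicle group, replicate 2 was highest for all 8 genes other than Mrc1, and replicate 1 was lowest for 7 of them. Within the phenolphthalein group, replicate 2 was highest for 7 of the 8 and replicate 3 lowest for 6. Averaged over these 8 genes and relative to the vehicle mean, the arrays stood at -0.45, -0.23 and -0.57 for phenolphthalein replicates 1 to 3, against -0.15, 0.16 and -0.01 for vehicle replicates 1 to 3. The nearest arrays of the groups, phenolphthalein replicate 2 and vehicle replicate 1, were thus closer to each other than vehicle replicates 1 and 2 were. The deposited value table gives the same values under other replicate numbers of the same group, so the number of an animal is uncertain while its group is not.

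Within the treated animals, the sets of genes stood at different levels. Cd68, Aif1, Tyrobp and Fcer1g averaged -0.64, -0.33 and -0.69 relative to their vehicle means in phenolphthalein replicates 1 to 3, and the 3 C1q genes -0.32, -0.14 and -0.51. In each treated animal the first set was the lower. In vehicle replicates 1 to 3, Cd68, Aif1, Tyrobp and Fcer1g averaged -0.10, 0.14 and -0.04 and the C1q genes -0.22, 0.19 and 0.04. Mrc1 did not follow this order: it was highest in phenolphthalein replicate 1 (1.35 above its vehicle mean), then 1.03 in replicate 2 and 0.91 in replicate 3. Between slides of the treated group, replicate 1 minus the mean of replicates 2 and 3 had a median of -0.01 for the 8 genes, and was -0.26 for Aif1, -0.24 for Tyrobp and 0.38 for Mrc1. Replicates 2 and 3 minus vehicle gave a median of -0.40, and replicate 1 minus vehicle -0.52.

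**Figure D3:**
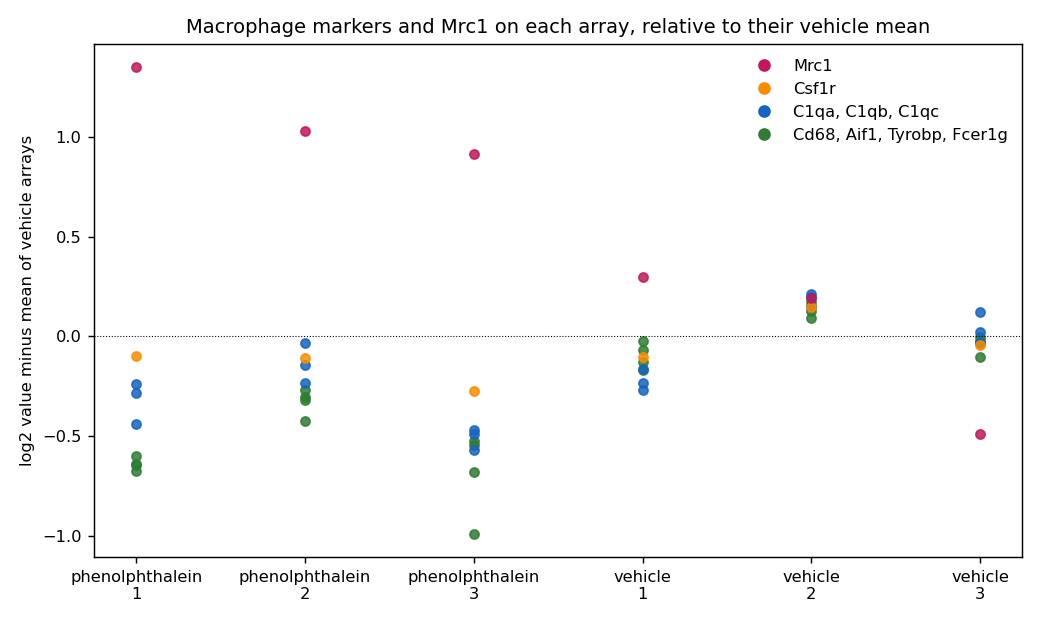
Log2 value of each of the 9 tested genes minus its mean over the vehicle arrays (vertical axis) on each array, phenolphthalein arrays left and vehicle arrays right. Mrc1 lies between 0.91 and 1.35 on the treated arrays, Cd68, Aif1, Tyrobp and Fcer1g have the lowest average on each treated array, and Csf1r stays nearest to 0 on phenolphthalein replicate 1.

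Genes that work with these markers were taken from lists, which were also drawn up with earlier results of these arrays known. None of the genes on them passed the fit over all probes (limma, 0 higher and 0 lower in each list). Beside the counts of lower means in this list and those below, 53.5% of all tested probes had a difference below 0. Among 25 tested macrophage and monocyte markers outside the 10 genes, 19 had lower and 6 had higher means, with a median log2 difference of -0.37. The 6 higher were Cd14 (0.33, SE 0.14), Msr1 (0.50, SE 0.43), Itgam (0.27, SE 0.54), Folr2 (0.07, SE 0.20), Clec7a (0.04, SE 0.15) and Clec10a (0.03, SE 0.13). In 11 of the 25 the treated arrays all lay below the vehicle arrays, against 8.98% of all tested probes. The smallest p values belonged to Cybb, the catalytic subunit of the phagocyte NADPH oxidase (-0.48, SE 0.11), Fcgr3a, an IgG receptor that signals through FCER1G (-0.73, SE 0.17), and Lst1 (-0.51, SE 0.13), with limma adjusted p of 0.412, 0.414 and 0.437. With normexp the median of this list was -0.24.

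The adaptors' partners had mostly lower means. By the probe of highest mean, all 13 tested receptors and kinases around TYROBP and FCER1G were below vehicle, with a median of -0.28. A difference below 0 was found in 53.5% of all tested probes. The other probes of Syk (0.14) and Fcgr2a (0.007) were higher, and Trem2 was at -0.03 (SE 0.29). Fcgr1a, Fcgr3a and Trem2 were also counted among the macrophage and monocyte markers. Fgr, a myeloid member of the Src kinases, stood at -3.17, -2.83 and -2.94 in phenolphthalein arrays, against -2.14, -2.03 and -2.22 in vehicle arrays (difference -0.85, SE 0.12, limma adjusted p = 0.315). The receptors Trem1, Clec5a, Cd300lb, Ms4a2, Fcer1a, Clec4d and Clec4e were not well above background on any array.

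The ligands of CSF1R and the transcription factors of the lineage had 9 lower and 2 higher means among 11 tested, with a median of -0.26. Spi1, which encodes the PU.1 factor named above, stood at -4.44, -4.08 and -4.17 in phenolphthalein arrays, against -3.73, -3.49 and -3.69 in vehicle arrays (difference -0.59, SE 0.16, limma adjusted p = 0.446). The factor Maf differed by -0.66 (SE 0.13, limma adjusted p = 0.406) and Runx1 by -0.36 (SE 0.11, limma adjusted p = 0.487). These 3, named for the smallest p values of the list, had groups that did not overlap. In the whole list, 4 of 11 were lower without overlap, against 8.98% of all tested probes.

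The other parts of the complement pathway had no common direction. Of 12 tested C1 partners and regulators, 6 were lower and 6 higher, with a median of -0.0042. The nearest to the threshold was C2, the protease that follows C1 in the cascade, at -0.64 (SE 0.22, limma adjusted p = 0.52), then C3 at -0.66 (SE 0.29, adjusted p = 0.583) and C1qbp at 0.08 (SE 0.05, adjusted p = 0.686). C3 was at -0.41 without phenolphthalein replicate 3, and the 3 probes of C1qbp ran from -0.03 to 0.08. Among 12 lysosomal and scavenger genes beside Cd68, 8 were lower and 4 higher, with a median of -0.06, led by the cathepsins Ctsz (-0.49) and Ctsb (-0.16) and the lysosomal protease Lgmn (-0.25), with limma adjusted p of 0.487, 0.499 and 0.557. Among 11 genes of haemoglobin clearance around Cd163, 7 were lower and 4 higher, with a median of -0.01. There the haem oxygenase Hmox1 was at -0.18, the ferritin light chain Ftl1 at -0.10 and haptoglobin, Hp, at 0.78, with limma adjusted p of 0.598, 0.674 and 0.781. The Hp value rested on phenolphthalein replicate 2, without which it was -0.01. It was 0.37 without vehicle replicate 3, 1.20 without vehicle replicate 1 and 1.35 without phenolphthalein replicate 1. Ftl1 was at -0.05 without phenolphthalein replicate 1.

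Genes of Mrc1's family, or found with Mrc1 in the same cells, had smaller differences than Mrc1 by the probe of highest mean. This does not hold for every probe. Ccl24 was at -0.01 by its probe of highest mean and at -0.57 by its other probe, while the dim Mrc1 probe was at 0.54. Of 8 tested, 5 had higher and 3 lower means, with a median of 0.13. The growth factor Igf1 differed by 0.22 (SE 0.08, limma adjusted p = 0.52), Lyve1, a hyaluronan receptor of lymphatic endothelium and of some macrophages, by 0.28 (SE 0.12, adjusted p = 0.565) and the family member Mrc2 by -0.11 (SE 0.09, adjusted p = 0.749). Mrc2 was at -0.07 without vehicle replicate 3. Lyve1 stood at -0.79, -0.67 and -0.91 in phenolphthalein arrays, against -1.11, -1.24 and -0.87 in vehicle arrays, so that its groups overlapped. Among 5 tested markers of lymphatic endothelium, 3 were higher and 2 lower with a median of 0.28, the mean level of the list ran from -0.39 to 0.02 in phenolphthalein arrays and from -0.44 to -0.26 in vehicle arrays, and Prox1 was not well above background on any array. The smallest p values were those of Pdpn (0.46), Lyve1 and the chemokine Ccl21 (0.50), with limma adjusted p of 0.483, 0.565 and 0.686. The 2 lower markers were Reln (-0.22, SE 0.14) and Flt4 (-0.03, SE 0.09), and the 3 probes of Flt4 ran from -0.03 to 0.12. Ccl21 was at 0.15 without phenolphthalein replicate 1, 0.33 without vehicle replicate 1 and 0.79 without phenolphthalein replicate 3. The part of this cell type in the Mrc1 difference was not tested.

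Markers of other immune cells were also measured. All 13 tested markers of T and NK cells had lower means, with a median of -0.51, and their mean level ran from -3.01 to -2.72 in phenolphthalein arrays and from -2.52 to -2.05 in vehicle arrays. The smallest p values were those of Cd8a (-0.69), Nkg7 (-0.47) and Prf1 (-0.51), with limma adjusted p of 0.468, 0.499 and 0.52. Both Nkg7 (-0.29) and Prf1 (-0.30) came nearer to 0 once phenolphthalein replicate 1 was left out. Neutrophil markers had a median of -0.06 over 6 tested genes, at -3.85 to -3.36 in phenolphthalein arrays and -3.72 to -3.32 in vehicle arrays, with Elane and Ltf not well above background on any array. Their smallest p values were those of Mmp9 (-0.68), Csf3r (-0.23) and S100a8 (0.41), with limma adjusted p of 0.461, 0.746 and 0.809. S100a8 was at 0.11 without phenolphthalein replicate 3, 0.12 without vehicle replicate 1, 0.78 without vehicle replicate 3 and 0.79 without phenolphthalein replicate 1. Dendritic cell markers were lower in 6 of 6, beside 53.5% of all tested probes, and 1 of the 6 had an unadjusted limma p under 0.05. Their median was -0.22, with mean levels of -3.87 to -3.64 in phenolphthalein arrays and -3.61 to -3.19 in vehicle arrays. Cd83 (-0.72), Batf3 (-0.27) and Clec9a (-0.41) had the smallest p values there, with limma adjusted p of 0.414, 0.698 and 0.748. Without vehicle replicate 2, Batf3 was at -0.10 and Clec9a at -0.03. Batf3 was at -0.43 without vehicle replicate 1, and Clec9a at -0.24 without phenolphthalein replicate 1 and -0.62 without vehicle replicate 3. The part of these cells in the values of Tyrobp, Fcer1g, Cd68 and Aif1, which they can also express, was not tested.

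**Figure D4:**
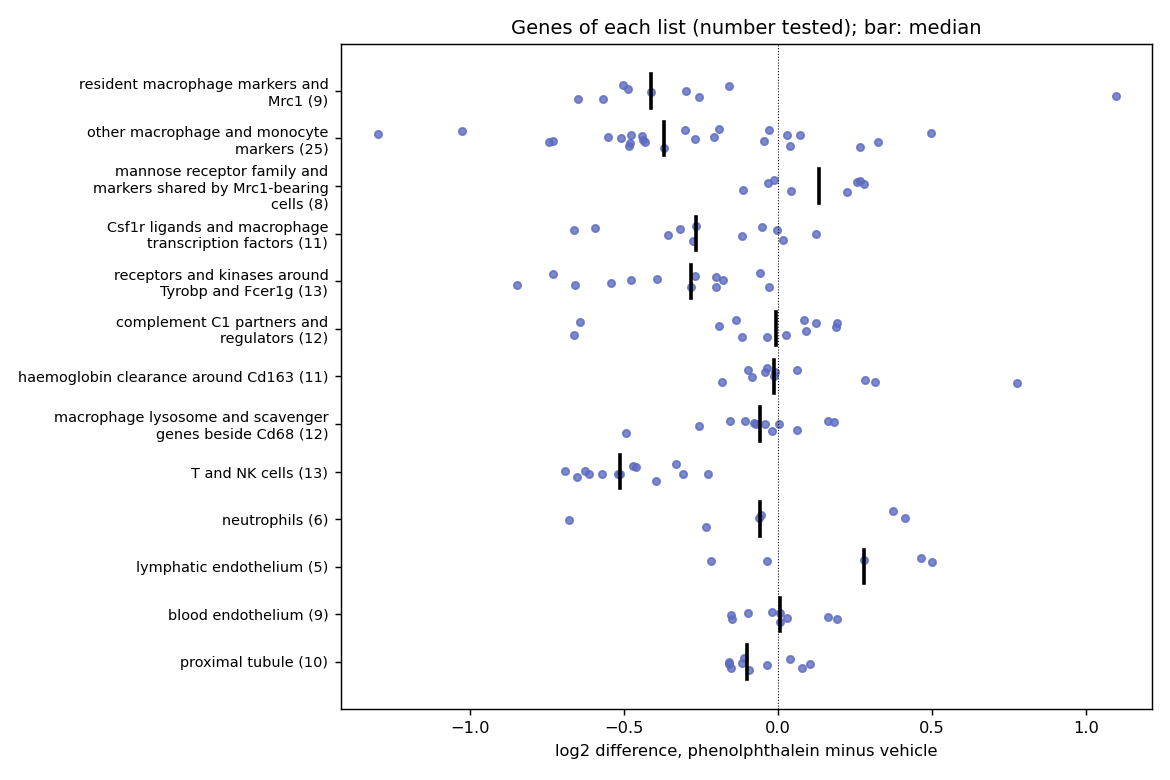
Log2 difference, phenolphthalein minus vehicle (horizontal axis), of the tested genes of each list, 1 point per gene by its probe of highest mean, with the median as a bar and the number of genes in brackets. Medians lie at -0.41 for the 10 chosen genes, of which 9 were tested, -0.37 for the other macrophage markers, 0.13 for the list around Mrc1 and -0.51 for T and NK cells.

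Genes with array patterns most like 3 of the markers were sought among 12249 named genes, by the root mean square distance between log2 profiles centred over the 6 arrays. Nearest to Mrc1 was Asrgl1, an asparaginase-like enzyme, at a distance of 0.183, with 4.67, 4.19 and 4.31 in phenolphthalein arrays against 3.43, 3.33 and 3.15 in vehicle arrays. Lipg, the endothelial lipase, at 0.231 and Gnao1, a G protein subunit, at 0.232 came next. Gnao1 was dim, at -5.40, -5.89 and -5.88 in vehicle arrays. Vehicle replicate 2 lay below the lowest signal called well above background on that array, -5.54. Nearest to Cd68 were Trpm2, a cation channel also found in phagocytes (0.0639), Asb2 (0.0777) and Ube2l6, a conjugating enzyme of the interferon-induced modifier ISG15 (0.0781). Nearest to C1qa were Serpinb9, an inhibitor of granzyme B (0.0649), Pgap1 (0.0762) and the cell cycle factor E2f1 (0.0795).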

How the data were processed

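Cortical RNA of 6 rats was measured on 1 single-colour array each. Per the file headers, Agilent Feature Extraction 10.7.1.1 gave a spot intensity that was background-subtracted and detrended within the array, with no scaling between arrays. The submitters' processing notes name version 10.7. Spot flags of the scanner were used as deposited. The authors' deposited value table holds a ratio on a linear scale. It equalled each array's intensity over its 75th percentile, though each column held the values of a different replicate within its group. It served as an alternative.

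Here log2 intensity minus the log2 of the array's 75th percentile was analysed, outlier spots (2 to 14 per array) set to missing. Probes well above background on at least 3 arrays were kept, 43472 in all, and named through RefSeq accessions with a GRCr8 gene table (27460 probes matched 1 symbol, 34197 none). The array is annotated on rn4, so no probe coordinates are given. All kept probes were fitted with limma 3.58.1 in R 4.3.3 (intensity trend, two-sided, Benjamini-Hochberg adjustment, threshold 0.05). The same fit was tested on simulated data. A gene in a list stands with its probe of highest mean. Of each list the 3 genes with the smallest p are named, except 2 genes that are not reported here and lists in the closing section given by their median or by fewer genes, and the 3 genes nearest in pattern to each of Mrc1, Cd68 and C1qa. Further genes or probes that went against their list are named for the macrophage markers, the adaptors' partners, the list around Mrc1 and lymphatic endothelium. SDs are between 3 animals, and the number of arrays limits the precision. The genes, lists and alternatives were chosen with earlier results of these data known. Normexp (offset 50) used the median spot signal in place of the planned mean signal. Lists of other cell types were neutrophils, T and NK, B and plasma, dendritic, mast, endothelial, mesangial, fibroblast, tubule, podocyte, erythroid and liver markers.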

Additional observations from a re-analysis of the deposited data

How the results depend on the processing

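Probes called numbered 0 higher and 0 lower in each of the 11 alternatives that kept all 6 arrays, and 0 to 1 in each direction when 1 array was left out, where calls came without vehicle replicate 1, phenolphthalein replicate 2 or phenolphthalein replicate 3. The median log2 difference of the 9 tested genes was -0.41, -0.40 with normexp, -0.39 with the median over the probes of each gene, and -0.51 to -0.33 with 1 array left out. The median of the other macrophage markers was -0.37 and -0.24 with normexp, and -0.42 to -0.26 with 1 array left out. The count of the genes that were lower without overlap was 4, and 4 to 7 with 1 array left out, reaching 7 without vehicle replicate 1 or without phenolphthalein replicate 2. Fewer arrays make a lack of overlap easier to reach. Of 189 values of the 18 probes under alternatives with all 6 arrays, 189 kept their sign, and of 108 values with 1 array left out 105 did. The 3 others were all of the dimmer Csf1r probe. Many of the 189 values could not have changed sign. Other probe filters, outlier spots kept, no intensity trend and the replicate block leave the difference of each of these probes as it was. The deposited value table holds the same ratios. The replicate block gave 0 probes higher and 0 lower, a median of -0.41 for the 9 genes and -0.37 for the other macrophage markers, and no other call. Same-numbered animals correlated at -0.0085, -0.0091 and 0.0431 in their deviations, which gives no sign that the numbers pair the animals, and replicate 1 of phenolphthalein correlated best with replicate 3 of vehicle. Fitting slide as a random block, the median of the 9 genes was -0.41 (limma, smallest adjusted p = 0.407 over all probes). As no slide held both groups, this fit could not separate a slide effect from the group difference. Signal over background limits the Cd163 probes and the dim Mrc1 probe. The median of the other macrophage markers, the count without overlap and the values of list genes without single arrays were added after seeing the data.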

Other observations

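Lists of other cell types of the cortex showed no called gene (limma, 0 higher and 0 lower in each). Fibroblast markers had 5 higher and 2 lower means among 7 tested, with a median log2 difference of 0.14. Their smallest p values included those of the collagen chains Col1a1 (-0.37, SE 0.07) and Col3a1 (-0.19, SE 0.08), with limma adjusted p of 0.406 and 0.552. The matrix proteoglycan Lum was well above background on 3 of 3 phenolphthalein arrays and 0 of 3 vehicle arrays. It therefore has only a bound, at least 1.09-fold higher after phenolphthalein. That bound is the treated mean over the vehicle arrays' mean detection limit, and Lum passed the filter through the treated group alone. Lum is nevertheless counted among the 5 higher genes and in the median of 0.14.

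Distal nephron markers had a median of -0.01 over 7 genes. The smallest p values were those of the thiazide-sensitive transporter Slc12a3 (-0.39), the water channel Aqp2 (-0.58) and the anion exchanger Slc4a1 (0.25), with limma adjusted p of 0.31, 0.51 and 0.668. The 3 probes of Slc12a3 disagreed, 1 lower and 2 higher, from -0.39 to 0.47. Slc4a1 was at 0.14 without vehicle replicate 2 and 0.42 without vehicle replicate 1. Mesangial and perivascular markers had 6 higher and 2 lower means, with a median of 0.07 over 8 genes. Tagln was at 0.42 and Myh11 at 0.36, and without phenolphthalein replicate 1 they were at 0.22 and 0.20. The 4 probes of Myh11 ran from -0.23 to 0.49.

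Liver markers had a median of 0.47 over 12 genes, with mean levels of -1.06 to 0.46 in phenolphthalein arrays and -1.40 to -0.20 in vehicle arrays. Ambp was at 0.39, Ahsg at 0.43 and Apoa1 at 0.76, and these values rested largely on phenolphthalein replicate 2, without which they were 0.16, 0.16 and 0.20. Apoa1 was at 0.47 without vehicle replicate 3 and 1.15 without vehicle replicate 1. Blood endothelium had a median of 0.01 over 9 genes, podocytes 0.02 over 6, proximal tubule -0.10 over 10 and erythroid cells -0.13 over 6. B and plasma cell markers had a median of -0.23 over 4 genes, with mean levels of -4.11 to -3.62 in phenolphthalein arrays and -3.94 to -3.41 in vehicle arrays. Mast cell markers had a median of 0.05 over 4 genes, and the receptor chains Ms4a2 and Fcer1a were not well above background on any array.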
